A study of Mus musculus with 4 samples.

Results

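Natural killer (NK) cells of the conventional type were picked out of KPC tumour leukocytes by their transcripts. Cells had to hold 300 to 5000 genes and at most 6% of unique molecular identifiers (UMIs) from mitochondrial genes. Among these, a cell was taken as an NK cell when it had no UMI of Cd3e, Cd3d or Cd3g, at least 1 UMI of Ncr1 or Klrb1c, at least 1 UMI of Eomes, Klra8 or Klra4, and no UMI of Csf1r or Cd79a. This gate took 961 of 23011 filtered cells (4.18%). They came from 4 libraries of live CD45+ cells sorted from tumours on the day of resection: 234 cells from untreated tumours, 106 after STING agonist, 409 after LTβR agonist and 212 after both. All tumours were grown in male C57BL/6NHsd mice from KPC cells, a single pancreatic cancer line derived from a genetically engineered mouse that carried Pdx1-Cre. The STING agonist was ADU-S100, a synthetic cyclic dinucleotide injected once into the tumour, and the LTβR agonist was the antibody 4H8, injected repeatedly into the peritoneum. Several tumours of a group were pooled into 1 library, so no spread between mice was measured. The single-cell assay was run in 2 separate mouse experiments, and which of them each library came from is not given in the sources used here, so treatment and experiment cannot be told apart. Every interval below covers counting error only.

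NK cells are innate lymphocytes that kill stressed or transformed cells by releasing perforin and granzymes and that shape other leukocytes through cytokines and chemokines. Their activity is set by the balance of activating receptors, such as NKp46 (encoded by Ncr1), NK1.1 (Klrb1c), Ly49H (Klra8) and Ly49D (Klra4), and inhibitory receptors for MHC class I, among them Ly49G (Klra7), Ly49I (Klra9), Ly49C (Klra3), Ly49A (Klra1) and the CD94-NKG2A pair (Klrd1 and Klrc1). Each NK cell transcribes a subset of the Ly49 genes. The transcription factor Eomes separates conventional NK cells from type 1 innate lymphoid cells (ILC1), tissue-resident relatives that share Ncr1 and Klrb1c with them.

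NK genes that the gate did not use were abundant in these cells. In the comparisons below, 4 of 15 NK identity genes were higher and 1 lower than in the ILC1-like gate. Of all genes tested there, 3.58% were higher and 4.90% lower. Against CD8 T cells, 13 of the 15 were higher and 2 lower, beside 18.7% and 20.2% of all genes tested. The adaptor gene Tyrobp (DAP12) was at 2332, 2358, 2465 and 2238 CPM (UMIs of the gene scaled to a library total of 1e+06). Every set of 4 values is given in the order untreated, STING agonist, LTβR agonist, both agonists. The cytotoxic granule gene Nkg7 was at 2133, 2180, 2332 and 2146 CPM, and the receptor subunit gene Klrd1 at 672, 750, 652 and 652 CPM. These levels were alike in the 4 libraries. Gzma, a marker outside the gate, had a UMI in 86.3%, 87.7%, 91.0% and 92.0% of NK cells. After each cell was thinned to 2000 UMIs the shares were 81.6%, 88.1%, 87.3% and 87.6%, against 2.56%, 0%, 0% and 0.730% of Cd79a-positive B cells of the same libraries, which should lack the gene. Of these B cells, 39, 11, 116 and 411 were thinned, so that a share of 0 among 11 cells leaves a wide interval. In thinned cells of the ILC1-like gate, described below, the shares with a Gzma UMI were 29.9%, 18.8%, 48.8% and 34.9%. Median UMIs per NK cell were 5040, 5328.5, 4513 and 4825, and those of the B cells 4291, 4989, 3695 and 4361.

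Transcripts of other lineages were found in a minority of NK cells. Trac, of the T cell receptor, had a UMI in 28, 7, 22 and 23 of the cells (12.0%, 6.60%, 5.38% and 10.8%). A UMI of Cd8a or Cd8b1 was found in 11, 3, 6 and 6 cells. At least 3 UMIs of macrophage genes were found in 2, 0, 2 and 5 cells, and at least 3 UMIs of MHC class II genes in 5, 3, 4 and 10. Neutrophil genes summed to 8.88, 7.88, 371 and 1.71 CPM over the list of 6, and 6 cells of the LTβR agonist library held at least 3 UMIs of S100a8 and S100a9. Summed levels of 10 dendritic cell genes were 1317, 376, 674 and 872 CPM and those of 12 macrophage and monocyte genes 943, 581, 562 and 709 CPM. No cell barcode of an NK cell was shared between libraries, while 246 barcode sequences were shared among all filtered cells. Doublet scores above 0.2 were found in 2, 0, 4 and 1 NK cells.

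The share of NK cells differed between the libraries and was largest with the LTβR agonist alone. NK cells made up 3.45% of filtered cells in the untreated library (exact 95% binomial interval 3.03 to 3.91) and 5.72% in that of the LTβR agonist (5.20 to 6.29). The share was 2.83% after STING agonist (2.32 to 3.41) and 3.98% after the combination (3.47 to 4.53). The LTβR agonist share was 1.66 times the untreated share (1.33 to 2.08). The ratios to untreated for the STING agonist, 0.820 (0.593 to 1.13), and for the combination, 1.15 (0.886 to 1.50), had intervals that included 1. When STING agonist was added to LTβR agonist the share was 0.695 of that with the LTβR agonist alone (0.551 to 0.873). With 1 library per group none of these ratios could be tested against the spread between mice.

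The denominator mattered for the combination. Lymphoid cells include Cd79a-positive B cells, which numbered 44, 13, 130 and 434, and their part in the ratios below was not tested. The 4 libraries held NK cells at 10.6%, 7.12%, 14.8% and 7.73% of their lymphoid cells. On this scale the combination was 0.730 of untreated (0.566 to 0.942) and the STING agonist 0.673 (0.491 to 0.916), while the LTβR agonist stayed above untreated at 1.40 (1.13 to 1.73). The same gate without Eomes, Klra8 and Klra4 UMIs, here called the ILC1-like gate, took 83, 88, 113 and 94 cells. It held 2.35% of filtered cells with the STING agonist against 1.22% in untreated tumours, a ratio of 1.92 (1.25 to 2.96). NK cells were therefore 73.8%, 54.6%, 78.4% and 69.3% of the cells of both gates, and the ratio of STING agonist to untreated on this scale was 0.740 (0.603 to 0.900).

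**Figure D1:**
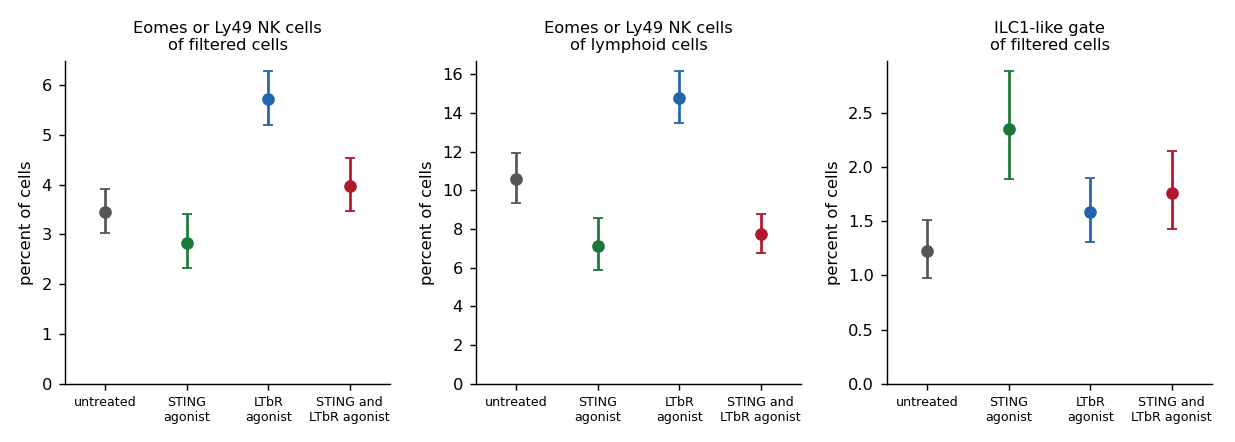
Shares of cells in percent for the 4 libraries, as NK cells of filtered cells, NK cells of lymphoid cells, and ILC1-like gate of filtered cells. Points are 1 library each and bars are exact 95% binomial intervals. The LTβR agonist library is highest in both NK panels, at 5.72% and 14.8%, and the STING agonist library is highest in the ILC1-like panel, at 2.35%.

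Most NK cells met the gate through both Eomes and a Ly49 gene. Cells with Eomes and with Klra8 or Klra4 numbered 141, 62, 230 and 136 in the 4 libraries. Those with Eomes and neither Ly49 gene numbered 34, 21, 55 and 26, and those with a Ly49 gene and no Eomes UMI 59, 23, 124 and 50. The last set was the shallowest, with median UMIs of 3286, 3325, 3636 and 3716 against 5812, 5608, 5040 and 4957.5 in cells with both, so a missed Eomes transcript and a lack of Eomes cannot be told apart there. Cells that passed the Eomes and Ly49 step by exactly 1 UMI were 28, 15, 46 and 23. Just outside the gate were 22, 9, 26 and 9 cells that met every other condition and held exactly 1 UMI of a CD3 chain.

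Cells with Eomes but no Klra8 or Klra4 UMI differed in several genes from cells with both. The genes named here were chosen after their values were seen and were not tested. The NKG2A gene Klrc1 was at 485, 712, 299 and 355 CPM in these cells against 190, 244, 191 and 184 CPM in cells with Eomes and Ly49. Klrb1b, which encodes the inhibitory receptor NKR-P1B, was at 583, 888, 375 and 499 CPM against 225, 256, 215 and 245 CPM. Klra7 was still at a pooled 344 CPM in these cells against 462 CPM in cells with both, so other Ly49 transcripts remained. Klrc1 and Klrb1b were higher in the cells without Klra8 or Klra4 UMIs in each of the 4 libraries. The same held for the lymphotoxin β gene Ltb (pooled 238 against 121 CPM), the transcription factor Rora (143 against 33.9 CPM), the activating receptor Cd226 (101 against 24.6 CPM), the adhesion gene Emb (1268 against 829 CPM) and the chemokine Xcl1 (962 against 671 CPM). Cells with Ly49 genes and no Eomes UMI were higher in Zeb2, a factor of terminal NK maturation, at 266, 277, 206 and 264 CPM against 139, 118, 168 and 179 CPM in cells with both, and in the chemokine gene Ccl4, at a pooled 1199 against 773 CPM. Their lower depth is given above and its part in these values was not tested.

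Ly49 receptor genes lie side by side on mouse chromosome 6, and those with high levels in NK cells differed by less than 2-fold between libraries. Klra8, at chr6:130115226-130129898 (GRCm38, minus strand), was at 663, 692, 686 and 645 CPM, and Klra4, at chr6:130043731-130067271, at 524, 482, 553 and 555 CPM. Both were used by the gate, and their values describe it. Klra7, which the gate did not use, was at 407, 466, 431 and 427 CPM, so that the 4 libraries lay within a narrow range. Klra9 was at 228, 254, 129 and 196 CPM and was lowest with the LTβR agonist, with a log2 ratio to untreated of -0.77 (-1.01 to -0.54). Its share of cells with a UMI in thinned cells was 27.6%, 27.7%, 19.2% and 22.4%, and 0.243% at most in B cells; before thinning it was 39.7%, 41.5%, 26.9% and 39.2%. Klra3 was at 146, 83.5, 127 and 96.5 CPM and Klra1 at 65.8, 33.1, 47.4 and 39.3 CPM, both lowest with the STING agonist. In that library 3 cells held 39.6% of the Klra3 and 47.6% of the Klra1 UMIs.

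The remaining Ly49 genes were rare. Klra5 was at 8.88, 28.4, 12.8 and 11.1 CPM, Klra6 at 17.8, 12.6, 16.6 and 11.1 CPM and Klra10 at 8.88, 7.88, 6.17 and 8.54 CPM. Klra17 and Klra2 stayed at or under 11.1 CPM. A cell carried on average 2.02, 1.92, 1.98 and 2.02 of 9 Ly49 genes after thinning, and 2.74, 2.61, 2.63 and 2.75 before, so the number of family members per cell was nearly equal in the 4 libraries. Close relatives share sequence: 5.86% of the 90-base windows of Klra10 transcripts, 2.83% of those of Klra3, 2.43% of Klra9 and 1.56% of Klra8 also occur in another gene, so reads from those stretches are uncertain.

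**Figure D2:**
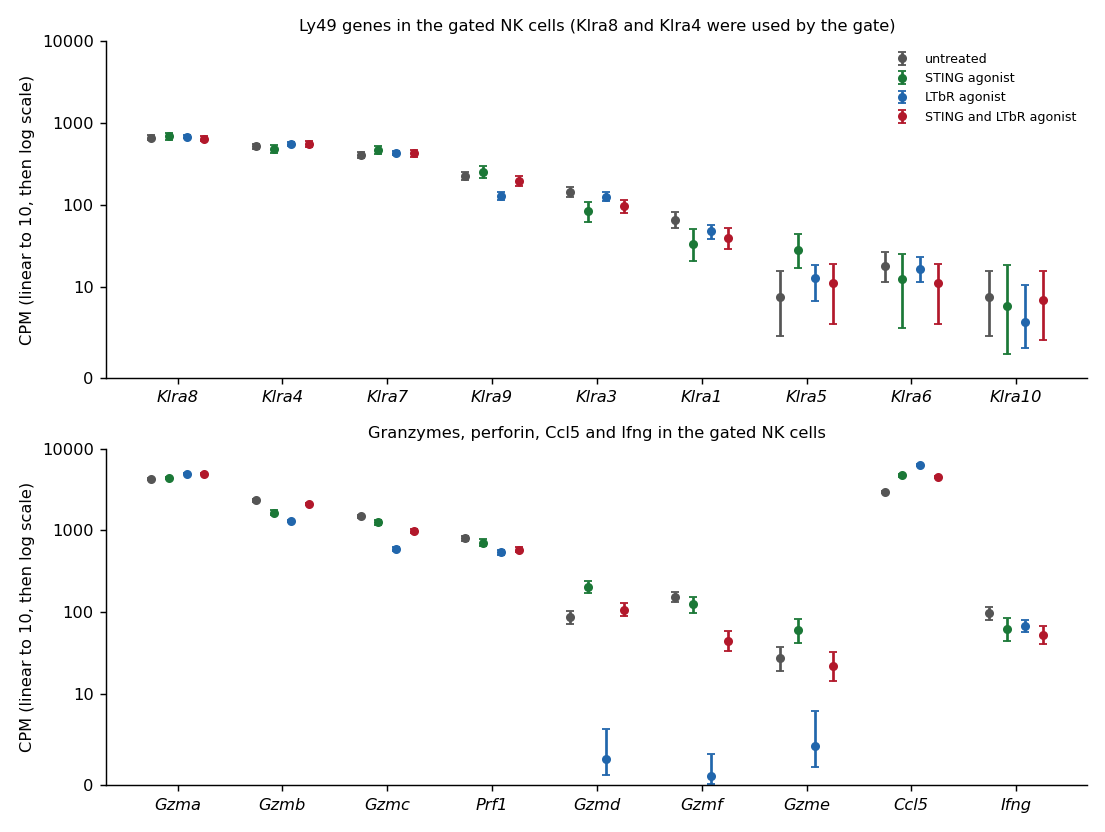
Levels in NK cells of Ly49 genes (top) and of granzymes, perforin, Ccl5 and Ifng (bottom), in CPM on an axis that is linear to 10 and logarithmic above. Each point is 1 library with its exact 95% Poisson interval; Klra7 lies between 407 and 466 CPM in the 4 libraries, while Gzmf ranges from 0.949 CPM with the LTβR agonist to 155 CPM in untreated tumours.

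Granzymes are the serine proteases that NK cells deliver into target cells, and perforin opens the way for them. Gzma (ENSMUSG00000023132, chr13:113093825-113100981) was at 4279, 4365, 4955 and 4953 CPM, with log2 ratios to untreated of 0.03, 0.21 and 0.21. Gzmb (ENSMUSG00000015437, chr14:56258838-56262260) was at 2330, 1653, 1301 and 2104 CPM and was lower in each treated library, with log2 ratios of -0.49 (-0.60 to -0.39) for STING agonist, -0.84 (-0.91 to -0.76) for LTβR agonist and -0.15 (-0.22 to -0.07) for the combination. The difference lay in strongly expressing cells as well as in the sum: cells with at least 10 Gzmb UMIs were 33.3% of untreated NK cells and 20.8%, 21.3% and 27.8% of the others. Prf1, the perforin gene, was at 798, 707, 538 and 584 CPM and also lowest with the LTβR agonist (-0.56, -0.68 to -0.44).

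Gzmc, which lies beside Gzmb at chr14:56231441-56234656, behaved differently, since few cells held it at very high levels. It was at 1498, 1262, 592 and 984 CPM, but had a UMI in 19.2%, 13.2%, 11.7% and 18.9% of NK cells (16.6%, 12.9%, 10.4% and 13.9% after thinning, against 0% of thinned B cells in each library). Cells with at least 100 Gzmc UMIs numbered 5, 3, 2 and 3 and held 66.7%, 85.4%, 26.5% and 48.4% of all its UMIs. The log2 ratio of -1.32 between the LTβR agonist and untreated libraries therefore rests on a handful of cells. Its neighbours Gzmd, Gzme and Gzmf were sparser still. Gzmd was at 87.3, 205, 2.85 and 108 CPM, Gzmf at 155, 124, 0.949 and 44.4 CPM and Gzme at 27.4, 59.9, 4.27 and 22.2 CPM, and 3 cells held at least 92.9% of the UMIs of each in every library where they were found. Gzmk and Gzmg stayed at or under 17.5 CPM.

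Of the 6 granzyme genes of chromosome 14 named above, the promoters of Gzme and Gzmg are not printed. The other 4 promoters are shown, those of Gzmb, found in most NK cells, and of Gzmc, Gzmd and Gzmf, found in fewer. They are the 250 bases before the RefSeq start in GRCm38.p6, all on the minus strand, at chr14:56262335-56262584 for Gzmb, chr14:56234658-56234907 for Gzmc, chr14:56132594-56132843 for Gzmd and chr14:56211408-56211657 for Gzmf. Capitals mark each match, on either strand, to a Runx site (TGTGGT) or a T-box core (TCACAC), the letters bound by the Runx and T-bet or Eomes families.
Gzmb promoter: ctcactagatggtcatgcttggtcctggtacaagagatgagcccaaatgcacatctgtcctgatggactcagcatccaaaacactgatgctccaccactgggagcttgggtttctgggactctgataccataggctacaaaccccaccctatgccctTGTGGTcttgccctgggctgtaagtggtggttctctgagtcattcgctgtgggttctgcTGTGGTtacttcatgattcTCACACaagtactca
Gzmc promoter: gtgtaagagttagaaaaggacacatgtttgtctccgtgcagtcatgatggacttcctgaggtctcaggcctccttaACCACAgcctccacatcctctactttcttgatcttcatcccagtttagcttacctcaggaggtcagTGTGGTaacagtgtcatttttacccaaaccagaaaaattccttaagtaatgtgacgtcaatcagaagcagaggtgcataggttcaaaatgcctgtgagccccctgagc
Gzmd promoter: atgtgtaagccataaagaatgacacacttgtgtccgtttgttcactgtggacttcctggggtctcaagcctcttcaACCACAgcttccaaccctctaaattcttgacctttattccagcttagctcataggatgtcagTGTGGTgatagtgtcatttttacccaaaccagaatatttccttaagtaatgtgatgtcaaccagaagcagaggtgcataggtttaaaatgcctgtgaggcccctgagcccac
Gzmf promoter: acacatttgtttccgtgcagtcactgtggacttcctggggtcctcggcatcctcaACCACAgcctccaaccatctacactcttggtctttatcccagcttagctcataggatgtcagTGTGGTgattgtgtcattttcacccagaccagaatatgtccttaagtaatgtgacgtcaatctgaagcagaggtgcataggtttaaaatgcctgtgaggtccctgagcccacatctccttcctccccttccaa
The Gzmc, Gzmd and Gzmf windows held 2 Runx matches each and no T-box match, and that of Gzmb held 2 Runx matches and 1 T-box match. Of 32536 mouse promoter windows of this length, 14.0% held the Runx letters and 12.1% the T-box letters. The Gzmc window was 81.3% identical to that of Gzmd, 71.5% to that of Gzmf and 50.2% to that of Gzmb. Matches are descriptions of the sequence and do not show that a factor binds there.

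NK cells with much Gzmc differed from the rest in what else they carried. A line was drawn at 20 Gzmc UMIs after the data were seen, and the values are descriptions without a test. It set apart 19, 7, 19 and 14 cells, 59 in all, from 88 cells with 1 to 19 UMIs and 814 with none. Median UMIs were 10248, 6299 and 4492 in these sets, so the Gzmc-high cells were also the deepest. Gzmd was found in 13 of the 59 cells and in none of the others, and Gzmf in 5 of the 59 and in 2 others.

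Ccl5, a chemokine that most NK cells carried, was lower in Gzmc-high cells, with a UMI in 17 of the 59 against 716 of the 814 cells without Gzmc. Its level was 496 CPM in those cells against 3941 CPM in cells without Gzmc in untreated tumours, 0 against 5910 CPM with the STING agonist, 163 against 7573 CPM with the LTβR agonist and 322 against 5930 CPM with both. The order was the same in each library. Thy1, the adhesion receptor gene Itga1 (CD49a, a mark of tissue residency) and the inhibitory receptor gene Ctla4 went the other way, with pooled levels of 694 against 149 CPM, 270 against 53.5 CPM and 311 against 40.0 CPM. Gzmb was at 3309 against 1387 CPM and Prf1 at 1131 against 545 CPM. Gzma was at 5838, 1080, 1319 and 3721 CPM in Gzmc-high cells against 4263, 5160, 5464 and 5176 CPM in cells without Gzmc, so that it was lower in the 3 treated libraries and higher in the untreated one. Klra7 hardly differed, at 418 against 428 CPM.

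**Figure D3:**
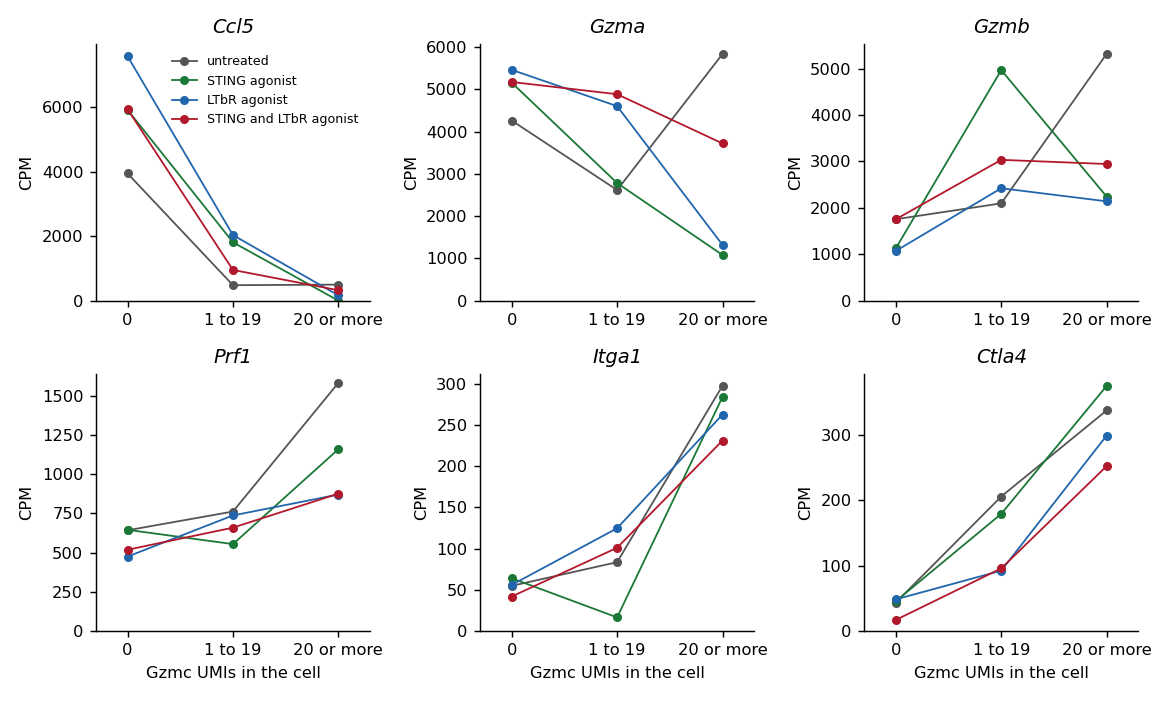
Levels in CPM of 6 genes in NK cells grouped by their number of Gzmc UMIs (0, 1 to 19, 20 or more), with 1 line per library. Ccl5 is highest in cells without Gzmc in each library (3941 to 7573 CPM), while Itga1 and Ctla4 are highest in cells with 20 or more Gzmc UMIs.

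Ccl5, whose product recruits T cells and dendritic cells, was past 2-fold between the LTβR agonist and untreated libraries. Its level was 2967, 4695, 6313 and 4447 CPM, lowest without treatment. Relative to the untreated library the log2 ratio was 0.66 (0.59 to 0.73) for STING agonist, 1.09 (1.04 to 1.14) for LTβR agonist and 0.58 (0.52 to 0.64) for the combination. It was seen both in the number of positive cells and in the level per cell. The share of cells with a Ccl5 UMI was 74.4%, 80.2%, 85.3% and 81.1% (67.3%, 76.2%, 78.2% and 75.1% after thinning, against 7.69%, 9.09%, 1.72% and 1.46% of B cells). Median Ccl5 UMIs per cell were 6.5, 18, 14 and 16.5, lowest in untreated tumours. Cells with at least 100 Ccl5 UMIs numbered 1, 5, 36 and 6, and the 36 cells of the LTβR agonist library held 36.9% of its Ccl5 UMIs.

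In CD8 T cells of the same libraries, gated by a CD3 and a CD8 chain, Ccl5 was not higher after treatment. The log2 ratios to untreated there were -0.63, -0.31 and -0.71. In the ILC1-like gate they were -0.48, 1.50 and 1.20. Cxcl10, a chemokine induced by interferon, was at 14.8, 0, 113 and 84.5 CPM in NK cells and was found in 10, 0, 54 and 12 cells. With the LTβR agonist its log2 ratio to untreated was 2.31 (1.79 to 2.87), and 3 cells held 29.4% of its UMIs. A Cxcl10 UMI was found in 4.55%, 0%, 3.85% and 2.30% of B cells, against 4.27%, 0%, 13.2% and 5.66% of NK cells. The combination value of 84.5 CPM rested on 3 cells that held 81.8% of them.

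Other secreted factors are given by their levels. Il1b was past 2-fold with the LTβR agonist, at 25.1, 12.6, 124 and 13.7 CPM (log2 ratio 1.93, 1.48 to 2.40), where 3 cells held 60.9% of its UMIs and neutrophil genes were also highest; their part in this value was not tested. Xcl1, the attractant of cross-presenting dendritic cells, was at 700, 879, 659 and 629 CPM. Ccl4 was at 837, 1010, 805 and 756 CPM. Ifng, the gene of interferon-γ, was low throughout, at 96.9, 63.0, 67.8 and 52.9 CPM, with a log2 ratio of the combination to untreated of -0.76 (-1.19 to -0.35). A UMI of Ifng was seen in 14.7%, 13.9%, 11.2% and 8.96% of thinned cells (2.56%, 0%, 0% and 0.243% of B cells), and in 22.2%, 26.4%, 17.1% and 17.5% before thinning. Of the list of cytokines and chemokines 9 of 18 could be compared, with 5, 3 and 3 above untreated in the treated libraries.

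Across the transcriptome, few genes of NK cells stood apart between libraries. The 5481 genes with a mean of at least 25 CPM over the 4 libraries were compared as log2 ratios after 10 CPM were added, and a gene was called at a ratio of at least 2-fold. With the STING agonist 9 genes were higher than in untreated tumours (0.164%) and 17 lower (0.310%). With the LTβR agonist 11 were higher (0.201%) and 8 lower (0.146%), and with both 3 were higher (0.0547%) and 5 lower (0.0912%). Many of these came from a few cells: for 5 of the 9 and 7 of the 17, 7 of the 11 and all 8, and all 3 and 4 of the 5 genes, 3 cells held at least 30% of the UMIs. The 3 contrasts share the untreated library. Within 0.5 of 0 on the log2 scale were 88.8%, 96.6% and 95.1% of the genes, and the STING agonist library, with the fewest NK cells, had the widest spread.

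Genes called with their UMIs spread over more cells were named by a fixed rule. With the STING agonist the secretory vesicle gene Rab27b was at 104 against 41.4 CPM in untreated tumours (log2 ratio 1.15, 0.65 to 1.64), followed by H2afx (1.08), Josd2 (1.02) and Stx5a (1.00). Lower were Rgs16, a regulator of G-protein signalling, at 15.8 against 66.6 CPM (-1.57, -2.42 to -0.81), Cd2ap (-1.28), Tbc1d22a (-1.21), Frmd4b (-1.17), the superoxide dismutase gene Sod1 (-1.08) and Spata5 (-1.04). With the LTβR agonist Cxcl10 and Ccl5 were joined by Enpp4 (1.13) and Cks2, a cell cycle gene (1.08), and no lower gene met the rule. With both agonists the formin gene Fmnl3 was lower, at 38.4 against 88.0 CPM (-1.02, -1.49 to -0.56), and no higher gene met the rule.

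**Figure D4:**
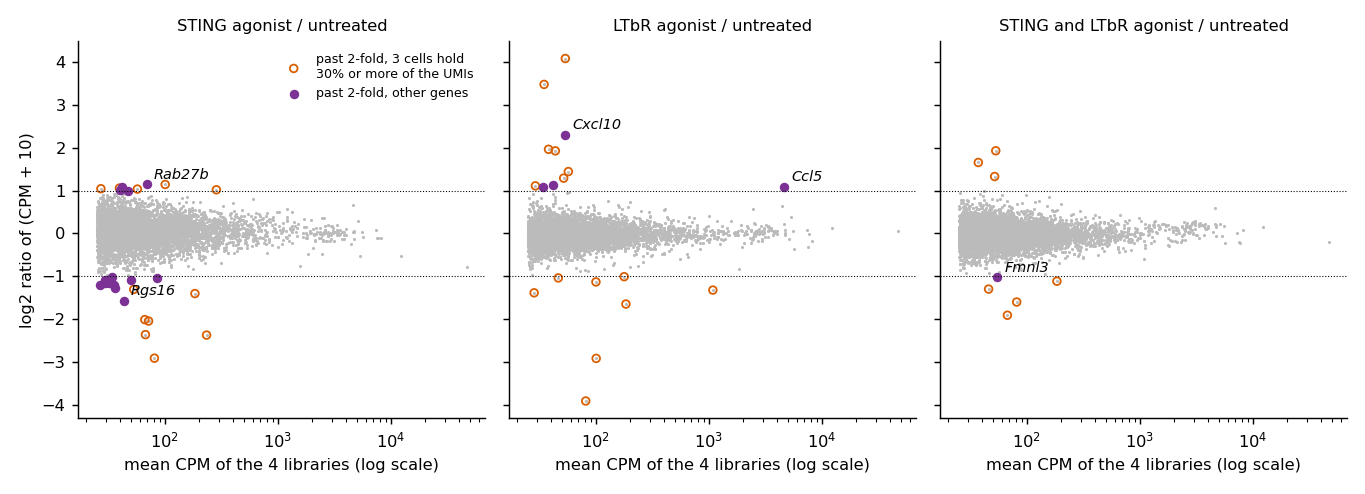
Log2 ratio of each treated library to the untreated one in NK cells, plotted against the mean level in CPM on a log scale, for 5481 genes. Dotted lines mark 2-fold, open circles are called genes in which 3 cells hold at least 30% of the UMIs and filled points the other called genes; with the LTβR agonist Ccl5 is at 1.09 and Gzmc at -1.32.

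Gene groups were compared by counts and medians of the same log2 ratios. Over all 5481 genes, 57.3%, 45.8% and 48.1% were above untreated in the 3 treated libraries, in the same order, with medians of 0.05, -0.02 and -0.01. Of 27 interferon-response genes, 12, 23 and 17 were above untreated, with medians of -0.03, 0.23 and 0.04. Among them Rsad2, an antiviral enzyme gene, was at 25.9, 12.6, 47.9 and 18.8 CPM, and Irf1 at 150, 197, 181 and 145 CPM. Ly6a was below untreated in each, at 283, 194, 198 and 188 CPM.

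Early-response and stress genes had their highest medians with the STING agonist. Of 19 immediate-early genes 18, 14 and 10 were above, with medians of 0.34, 0.09 and 0.01. Junb was at 1058, 1578, 1112 and 1046 CPM, Fos at 132, 194, 117 and 94.8 CPM and Egr1 at 59.9, 110, 56.9 and 103 CPM. Of 10 heat shock genes 9, 7 and 7 were above, with medians of 0.35, 0.15 and 0.08, and the chaperone gene Hspa8 was at 819, 1166, 929.5 and 1046 CPM. Summed levels of both lists were also highest with the STING agonist in the other gates. Immediate-early sums, untreated against STING agonist, were 4734 and 6179 CPM in CD8 T cells and 6487 and 7780 CPM in the ILC1-like gate. Heat shock sums were 3158 and 4414 CPM in CD8 T cells and 3249 and 4396 CPM in the ILC1-like gate.

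Metabolic and cytotoxic genes were lower with the LTβR agonist on balance. Of 14 glycolysis and hypoxia genes 8, 1 and 4 were above untreated, with medians of 0.03, -0.17 and -0.09. Aldoa, a glycolytic enzyme gene, was at 596, 622, 393 and 602 CPM and Ldha, which encodes lactate dehydrogenase A, at 440, 473, 319 and 359 CPM. Of 16 cytotoxic genes 11, 5 and 6 were above, with medians of 0.13, -0.23 and -0.09. TGF-β response genes, which mark the conversion of NK cells toward an ILC1-like state, had medians of -0.26, -0.02 and 0.03 over 9 genes. Of 7 cell cycle genes all were above untreated with the LTβR agonist and with both (medians 0.54 and 0.35), but Mki67, at 14.8, 14.2, 86.8 and 36.7 CPM, had 66.1% of its UMIs in 3 cells in the LTβR agonist library.

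Receptor and homing genes differed in direction between libraries. Of 18 activating receptor genes 15, 11 and 11 were above untreated, with medians of 0.10, 0.03 and 0.02. Of 13 inhibitory receptor genes 10, 4 and 9 were above, with medians of 0.22, -0.09 and 0.13, and of 11 homing genes 7, 4 and 3, with medians of 0.10, -0.20 and -0.10. Of 15 genes of NK identity 11, 9 and 7 were above untreated, with medians of 0.11 and 0.01 for the single agonists. Klrc1 was at 226, 334, 201 and 248 CPM and Klrb1b at 277, 391, 243 and 306 CPM, both highest with the STING agonist. Klf2, a factor that maintains lymphocyte recirculation, was at 340, 566, 240 and 459 CPM. The 2 highest libraries were those with the STING agonist. Cxcr4, the receptor of CXCL12, was at 246, 224, 350 and 360 CPM and thus higher in both libraries with the LTβR agonist, with log2 ratios of 0.49 (0.30 to 0.68) and 0.53 (0.32 to 0.74). Tox, a factor of NK development and of exhaustion in T cells, was at 212, 120, 169 and 134 CPM, lower than untreated in each treated library. Of the genes through which the agonists act, 7 of 9 could be compared, with a median of 0.13 with both agonists; the STING gene Tmem173 was at 41.4, 64.6, 41.3 and 46.1 CPM.

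The NK cells were next compared with the ILC1-like gate, which differs from them by the lack of Eomes, Klra8 and Klra4 UMIs. UMIs were summed per library and gate and tested with edgeR's quasi-likelihood test, with the library as a block and Benjamini-Hochberg adjustment over the 6735 genes tested. Genes of the gates were left out. At an adjusted p under 0.05, 241 genes were higher in NK cells (3.58%) and 330 lower (4.90%). The p-values measure how the difference between the gates varied among the 4 libraries, which also differ in treatment. Without the combination library 146 genes were higher and 249 lower.

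Ly49 genes that the gate did not use were higher in NK cells. Klra7 was at 407, 466, 431 and 427 CPM in NK cells against 138, 5.57, 117 and 64.4 CPM in the ILC1-like gate (log2 fold change 2.52 ± 0.29 SE, adjusted p = 2.88e-06 by edgeR). The groups did not overlap, but Klra7 was also among the genes named for a change in the same direction in all 4 libraries. The share of all tested genes without overlap is not given. The gap was widest in the STING agonist library. Klra3 (2.02 ± 0.20), Klra1 (2.13 ± 0.37) and Klra9 (1.52 ± 0.31, adjusted p = 0.00205 by edgeR) were higher too, although Klra9 was nearly level in the LTβR agonist library, at 129 against 117 CPM. Klra5 went the other way (-1.45 ± 0.28), at 8.88, 28.4, 12.8 and 11.1 CPM against 46.1, 55.7, 38.9 and 21.5 CPM.

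Several genes of homing and circulation were higher in NK cells. Klf2 (1.05 ± 0.18, adjusted p = 0.000478 by edgeR), Itga4 (0.53 ± 0.13), Ccr2 (0.49 ± 0.12) and Cxcr4 (0.54 ± 0.12) were higher, whereas Gpr183, a receptor for oxysterols, was lower (-1.43 ± 0.12). In all, 6 of 13 homing genes were higher and 2 lower. Other leading genes were Itga2, which encodes the NK marker CD49b (1.39 ± 0.17), the lectin receptor Klri2 (1.36 ± 0.13), the signalling chain Cd247 (1.27 ± 0.14), Ust (1.47 ± 0.13) and Aff3 (1.28 ± 0.16).

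Genes of tissue residency were lower in NK cells, with 10 of 11 tested members below and none above. Il7r, the IL-7 receptor, was at 15.5, 20.5, 14.7 and 20.5 CPM against 158, 180, 174 and 215 CPM (-3.37 ± 0.16). Rora was at 59.9, 52.0, 53.1 and 70.0 CPM against 459, 552, 344 and 324 CPM (-2.76 ± 0.15), and the phosphatase gene Inpp4b at 78.4, 94.5, 83.5 and 75.1 CPM against 534, 639, 377 and 503 CPM (-2.58 ± 0.13). The groups did not overlap for any of these genes. How many of all tested genes were without overlap is not given here. Itga1 (-1.04 ± 0.13) and the death ligand gene Tnfsf10 (-1.41 ± 0.21) were lower too. Tmem176b (-4.16 ± 0.21), St6galnac3 (-3.05 ± 0.16), Cd226 (-2.64 ± 0.13) and Ly6c2 (-2.62 ± 0.13) were among the largest differences.

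Cytotoxic genes split in 2 directions, with 4 of 16 higher in NK cells and 7 lower. Gzma was at 4279, 4365, 4955 and 4953 CPM against 1721, 1197, 3323 and 3099 CPM (1.11 ± 0.13, adjusted p = 5.20e-06 by edgeR). Gzmb (0.51 ± 0.10) and Prf1 (0.72 ± 0.12) were also higher. Gzmc was lower, at 1498, 1262, 592 and 984 CPM against 3349, 4734, 1141 and 4552 CPM (-1.55 ± 0.14, adjusted p = 1.12e-07 by edgeR). Gzme (-2.47 ± 0.29) and Gzmd (-1.40 ± 0.27) were lower with it, and Gzmf (-1.74 ± 0.53, adjusted p = 0.0473 by edgeR) was lower in only 2 of 4 libraries. Ccl5 was higher in NK cells (1.05 ± 0.16) and Xcl1 (-0.93 ± 0.09), Ltb (-1.36 ± 0.12) and Cxcl10 (-1.52 ± 0.19) lower.

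Inhibitory receptors were mostly lower, with 8 of 15 below and 2 above. Klrb1b (-1.36 ± 0.09), Klrc1 (-1.12 ± 0.10), Ctla4 (-1.20 ± 0.15), Lag3 (-1.18 ± 0.22) and Lilrb4a (-0.99 ± 0.14) were lower, while Tigit (0.51 ± 0.13) was higher. Klrg1, an inhibitory receptor best known from mature NK cells, was lower in them than in the ILC1-like gate (-1.84 ± 0.26). No interferon-response gene of 32 was higher and 10 were lower, among them Ly6a (-1.16 ± 0.13), Bst2 (-0.94 ± 0.12) and Cxcl10. Of 19 transcription factors 4 were higher, including Irf8 (0.67 ± 0.11) and Bach2 (0.54 ± 0.14), and 2 lower, Rora and Ikzf2 (-1.09 ± 0.16). Of 15 NK identity genes 4 were higher, among them Tyrobp (0.41 ± 0.07), Nkg7 (0.25 ± 0.08) and Klri2, and 1 was lower. Glycolysis and hypoxia genes were lower in 7 of 16 cases and higher in none.

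Cells of other lineages were more frequent in the ILC1-like gate. Its neutrophil genes summed to 175, 6172, 522 and 1.95 CPM and its dendritic genes to 3562.5, 650.3, 3761 and 2543 CPM, against the lower sums given above for NK cells. Il1b (-2.58 ± 0.28) and Ifitm1 (-2.95 ± 0.32), both abundant in myeloid cells, were among the genes lower in NK cells. Without cells holding at least 3 UMIs of macrophage, MHC class II or neutrophil genes, a setting added after the data were seen, 218 genes were higher and 235 lower. Fold changes were then 2.48 for Klra7, -2.99 for Rora and -2.91 for Ifitm1, all with adjusted p under 0.05. Il1b was no longer among the genes tested in this setting. NK cells were also deeper than the ILC1-like gate in 3 of the 4 libraries, with median UMIs there of 3794, 5626.5, 3375 and 4091, and when the gates were drawn on cells thinned to 2000 UMIs 63 genes were higher and 91 lower. Thinning also left fewer genes to test.

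**Figure D5:**
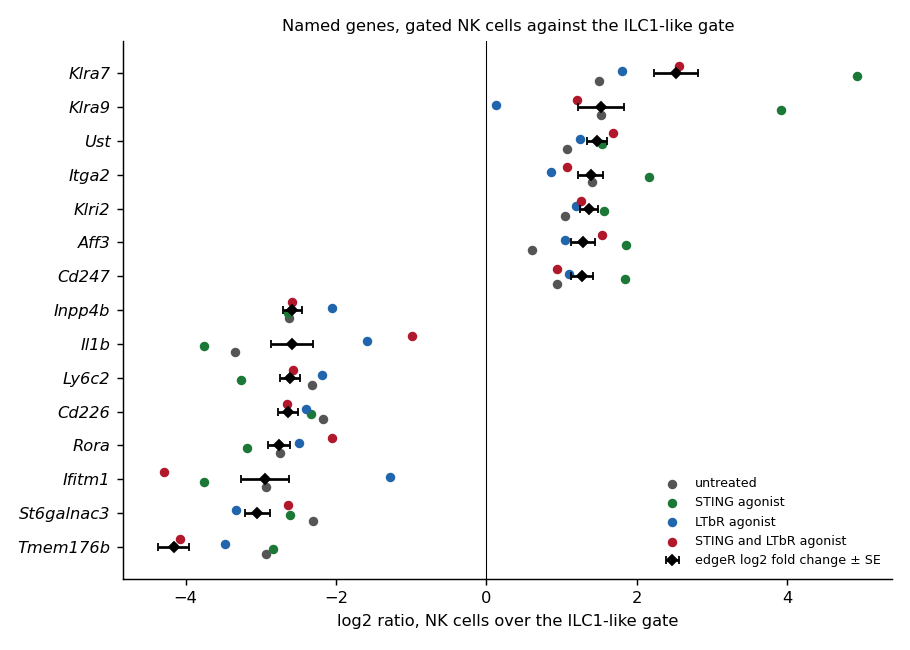
Log2 ratio of NK cells over the ILC1-like gate for the named genes. Coloured points are the 4 libraries and black diamonds the edgeR log2 fold change with its standard error. All 4 libraries lie on the same side of 0 for each gene because the naming rule required it. Klra9 in the LTβR agonist library is closest, at 0.13.

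Compared with CD8 T cells of the same tumours, NK cells differed in many genes. This gate was larger than the ILC1-like gate, with 3314 against 378 cells, so the counts of the 2 comparisons are not on the same footing. Of 10534 genes tested in the same way, 1967 were higher in NK cells (18.7%) and 2132 lower (20.2%). With gates on cells thinned to 2000 UMIs 1114 were higher and 1108 lower. Of 15 NK identity genes 13 were higher and 2 lower, and of 7 Ly49 genes tested 6 were higher. Tyrobp was at 2332, 2358, 2465 and 2238 CPM against 113, 74.2, 89.5 and 55.0 CPM (4.86 ± 0.11), and Klra9 (5.54 ± 0.22), Itga2 (5.12 ± 0.12), Clnk (5.03 ± 0.12), Car2 (4.67 ± 0.12), Klrb1b (4.14 ± 0.12) and Lrmda (4.12 ± 0.14) followed.

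The 2 killer populations carried different sets of granzymes and checkpoint receptors. Gzma was at 4279, 4365, 4955 and 4953 CPM in NK cells against 388, 186, 217 and 278 CPM in CD8 T cells (4.16 ± 0.13, adjusted p = 3.90e-15 by edgeR). Gzmc was higher too (3.10), whereas Gzmb differed by -0.04 (adjusted p = 0.74 by edgeR) and Ccl5 by -0.25 (adjusted p = 0.19 by edgeR). Pdcd1, which encodes PD-1, was at 8.14, 0, 3.79 and 5.12 CPM against 463, 575, 357 and 478 CPM (-6.51 ± 0.18). Havcr2 (-5.80 ± 0.17) and Lag3 (-4.46 ± 0.10), further exhaustion receptors, were lower with it, as were the residency chemokine receptor Cxcr6 (-6.55 ± 0.13), Themis (-6.70 ± 0.15), Gm156 (-6.90 ± 0.18), Trac (-4.33 ± 0.14) and Ifi27l2a (-5.23 ± 0.22).

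Groups of genes separated the 2 populations as well. Of 19 cell cycle genes 18 were lower in NK cells and none higher. Of 18 glycolysis and hypoxia genes 15 were lower and 1 higher, and of 33 interferon-response genes 18 were lower and 2 higher. Immediate-early genes were higher in NK cells in 13 of 22 cases and lower in 3, among them Junb (0.45), which was higher. Of 16 homing genes 10 were higher, among them Ccr2 (2.56) and Cxcr4 (2.33), and 5 lower. Inhibitory receptors were lower in 11 of 18 cases and higher in 3.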

How the data were processed

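Live CD45+ cells of subcutaneous KPC tumours were profiled with a 10x 5′ kit, in 1 library per treatment. The authors deposited raw UMI counts per gene and cell in 1 matrix, made with Cell Ranger 7.1.0 on mm10 per the submitters' processing notes; cells were assigned to libraries by the number after the barcode, and 0 columns were left unmapped. Libraries held 7191, 3955, 7824 and 5869 barcodes and 60770280, 32529174, 56877525 and 42710099 UMIs. The members and gene lists were chosen with earlier results of these data known.

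Cells were filtered at 300 to 5000 genes and at most 6% mitochondrial UMIs. Doublets were scored with scanpy 1.11.5 (scrublet) and kept, and left out above 0.2 as an alternative. Counts were summed per library and gate and scaled to CPM (a library total of 1e+06); log2 ratios used a pseudocount of 10 CPM and genes with a mean of at least 25 CPM, and such ratios understate differences of low genes. Intervals cover counting error only and carry no test between treatments. Those of shares and CPM are exact 95% binomial or Poisson. Bounds of share ratios come from opposite ends of both share intervals, so they are wider than a 95% interval. Intervals of log2 ratios are those of a ratio of Poisson counts, with the pseudocount added as counts. Gates were compared with edgeR 4.0.16 (R 4.3.3), quasi-likelihood test with library as a block, Benjamini-Hochberg threshold 0.05; the block pairs gates of the same library. Because both gates of a library come from the same pooled tumours, p-values measure how the difference between gates varied among 4 libraries. Scripts were tested on simulated data. Alternatives included DESeq2 1.42.0, other pseudocounts, filters, gates and denominators, thinning to 2000 UMIs, and leaving out each library.

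Genes were named by rule: gate genes as description; Ly49 and granzyme genes one by one; genes past 2-fold with under 30% of UMIs in 3 cells, up to 6 in each direction by interval bound; and the 8 highest and 8 lowest fold changes past the threshold with a mean of at least 100 CPM. The genes of these fold changes also had to change in the same direction in all 4 libraries. From other lists the rule took the members with the highest levels or the most extreme ratios. Further examples were chosen after their values were seen. Promoter sequences are from RefSeq (GRCm38.p6), and gene positions from GENCODE on GRCm38. A gene that the naming rule also took is not reported here.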

Additional observations from a re-analysis of the deposited data

Results flagged for a closer look

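The log2 ratio of the LTβR agonist to the untreated library had opposite signs in NK cells and in CD8 T cells for both chemokine genes named above. For Ccl5 it was 1.09 in NK cells and -0.31 in CD8 T cells. For Cxcl10 it was 2.31 in NK cells and -0.37 in CD8 T cells. With 1 library per treatment, the difference between the cell types was not tested.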

How the results depend on the processing

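Shares of NK cells depended on the denominator. Of lymphoid cells, the combination was 0.730 of untreated and 0.522 of the LTβR agonist; of NK and ILC1-like cells together, the LTβR agonist was 1.06 of untreated and the combination 0.884 of the LTβR agonist. The counts of genes past 2-fold (26, 19 and 8 for STING agonist, LTβR agonist and both against untreated, 29 for both against STING agonist and 15 for both against LTβR agonist) moved with the pseudocount and filter. They were 73, 34, 30 and 88 for the first 4 contrasts at a pseudocount of 1 CPM, 6, 10, 3, 7 and 6 at 50 CPM, 94, 52, 44, 82 and 40 without a filter on low values, and 4, 6, 1, 3 and 3 at a mean of at least 100 CPM. With the mean of CPM per cell, 45 genes passed for STING agonist and 19 for both against untreated. At least 2 UMIs of Eomes, Klra8 and Klra4 gave 16 for both against untreated and 9 against LTβR agonist, and the log2 ratio of Xcl1 for both against untreated became 0.00014. Cst3, a gene abundant in myeloid cells, turned to 0.12 for STING agonist and 0.027 for both against untreated without cells of 3 or more macrophage UMIs, and to 0.16 and 0.13 without cells of 3 or more MHC class II UMIs.

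Against the ILC1-like gate, 241 genes were higher in NK cells and 330 lower. DESeq2 gave 96 and 159, no filter on low counts 407 and 518, and gates on cells thinned to 2000 UMIs 63 and 91. Leaving out each library in turn gave 146 to 218 and 249 to 286. With no replicate block for the library, 158 were higher and 224 lower. Thinned gates gave 1114 and 1108 genes against CD8 T cells. Each cause was not tested, beyond the fewer genes, cells or libraries that a setting leaves. Over all settings, 77 values of named genes moved, 5 changed sign and 1547 stayed the same. For ratios between libraries, staying the same meant within the counting interval. For fold changes between gates, it meant the same sign and an adjusted p under 0.05 by edgeR. Of the shares of cells with a UMI, 105 values moved and 215 did not. Of the share ratios and gene counts of the comparisons, 37 moved and 127 did not. Depth limits what can be seen for genes under 25 CPM, and the STING agonist library held 106 NK cells.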

Other observations

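Ly49H and Ly49D transcripts were found together in many NK cells. Of cells with a Klra8 UMI, 63.9%, 58.6%, 62.0% and 63.2% also had a Klra4 UMI (untreated first, then STING agonist, LTβR agonist and both), against 47.7%, 41.7%, 61.5% and 54.4% of cells without Klra8. Cells without Klra8 entered the gate through Klra4 or Eomes, so these shares depend on the gate and were not tested.

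Barcodes outside the limits on genes and mitochondrial UMIs also met the marker rule, in 4 of 408, 4 of 207, 6 of 677 and 3 of 536 cases.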
